A study of Mus musculus with 15 samples.

Results

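Livers that expressed a MYC transgene for several weeks but held no tumor were compared with livers that carried only the driver transgene. The comparison rests on 7 of the 15 arrays of the series, which are the 4 labelled as pre-tumor liver and the 3 labelled as control liver. All mice were of the FVB/N strain, and all groups carried LAP-tTA, in which the LAP promoter drives the tetracycline transactivator tTA in the liver. Control livers had LAP-tTA alone. Pre-tumor livers had LAP-tTA together with TRE-MYC, and were taken 4 to 5 weeks after doxycycline was withdrawn, when no tumor was present. Every mouse was fed chow with 200 mg/kg doxycycline until older than 8 weeks, and the chow was then removed. Sex, exact age and the controls' time off the drug are not given in the labels. They do not say which species the MYC sequence came from, or that each array is a separate animal. The p-values below therefore measure only the spread between samples, which may be technical. That spread was pooled over all 15 arrays, which include tumor groups, and not taken from the 7 compared arrays alone.

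MYC is a transcription factor of the basic helix-loop-helix leucine zipper class. It binds E-box DNA as a dimer with MAX and is known for driving ribosome production, nucleotide synthesis, glutamine use and cell division. In this tetracycline-regulated system doxycycline keeps tTA off its promoter, so withdrawal turns the MYC transgene on in hepatocytes, and long expression gives liver tumors. The pre-tumor livers therefore address what MYC does to the tissue before a tumor is seen.

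RNA was amplified and hybridised in 1 colour to Agilent mouse 4x44K arrays. Levels are log2 processed signals minus the 75th percentile of that array, so a level of 0 is a probe as bright as that percentile, and levels of different probes are not compared. Between 54.2% and 90.8% of spots were well above background on the 7 arrays, with pre-tumor 4 the highest. The signal of the E1A control probes, before scaling, was highest on control 1, pre-tumor 1 and pre-tumor 4. It was 5.32, 5.08 and 6.34 log2 units there, against 3.10 to 3.93 on the other 4. Minus the array's 75th percentile it was -0.82, -1.88 and -0.98, and pre-tumor 3 was close to pre-tumor 1, at -1.97. Alb, which encodes albumin, lay at 9.84 to 10.36 in controls and 9.40 to 11.20 in pre-tumor liver, far above the 75th percentile on all 7 arrays. The arrays lie on 4 slides, and 3 of these held 1 control and 1 pre-tumor array each (control 1 with pre-tumor 2, control 2 with pre-tumor 3, control 3 with pre-tumor 4). The first 2 principal components of the 7 arrays held 36.8% and 32.8% of the variance and neither separated the groups. On the first, control 1 was at -96.0 and pre-tumor 3 and 4 at -54.7 and -48.9. The remaining arrays, controls 2 and 3 among them, lay between 23.6 and 67.2. Pre-tumor 3 had the highest value of the 7 arrays for 24.0% of genes and the lowest for 25.8%, which is more than any other array.

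No gene passed the test between pre-tumor and control liver. Of 19234 genes, 0 had a Benjamini-Hochberg adjusted p under 0.05 in limma, and 504 (2.62%) had an unadjusted p under 0.05. The smallest adjusted p was 0.115, which Echdc3 and Sergef shared. Other settings of the same test called between 0 and 11 genes. With the control and pre-tumor arrays alone in the fit, 0 genes were called and 305 had an unadjusted p under 0.05. The median standard error of a difference was 0.479 log2 units, so the 95% interval of a typical gene reached 1.02 log2 units (2.02-fold) to either side. For 3661 genes the whole interval lay within 2-fold each way. For the remaining genes a 2-fold difference in at least 1 direction was within the error of this fit, whose spread came from all 4 groups.

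Agreement in direction was counted apart from the calls, as a description without a test. The counts are not set against the number that chance would give, so they do not by themselves show a difference between the groups. Among 18632 genes measured on all 7 arrays, 357 (1.92%) were higher in every pre-tumor array than in every control array, and 168 (0.902%) were lower. Within slides, 1694 genes (9.08% of 18665) were higher in pre-tumor liver in all 3 shared slides and 795 (4.26%) were lower. A gene without overlap has 1 sign in all 3 slides by construction, so the second count holds the first. Arrays of the same slide did not deviate together from their group means, so within-slide differences are not shown to remove an effect of the slide. The median difference over all genes was -0.04 log2 units, and the central 95% of genes lay between -0.88 and 0.98. A difference of at least 2-fold upward was seen in 456 genes, of which 145 did not overlap and 294 kept that sign in all 3 slides. Downward it was seen in 289 genes, of which 52 did not overlap and 116 kept that sign in all 3 slides. Under all 5 scalings of the signal, 82 genes stayed higher without overlap and 32 stayed lower.

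The Myc probes did not give 1 answer. Probe A_52_P108346 (mm9, chr15:61819528-61819587) read -0.23, -0.94 and -1.63 in controls 1 to 3 and 2.49, 0.09, 1.72 and 0.20 in pre-tumor 1 to 4. Every pre-tumor array lay above every control array, with pre-tumor 1 and 3 well apart and pre-tumor 2 and 4 just above control 1. The difference was 2.06 ± 0.54 log2 units (SE), or 4.16-fold, with an adjusted p of 0.857 in limma over all named probes. On the same probe tumors averaged 4.22 ± 0.48 (SD, n = 4), above all pre-tumor arrays, and tumors after 72 hours back on doxycycline averaged -0.43 ± 0.32 (SD, n = 4).

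The other Myc probes lie on either side of that one on the chromosome and did not separate the groups. Probe A_52_P278549 (chr15:61819036-61819095), the brightest and so the one that stands for Myc in the gene-level fit, was at 1.62, 2.18 and 1.95 in controls and at 2.32, 1.66, 0.59 and 1.37 in pre-tumor liver. Its difference was -0.43 ± 0.47 log2 units. Probe A_51_P102096 (chr15:61819627-61819687) differed by 0.08 ± 0.45. In tumors both probes were below their control mean, at 0.81 ± 0.36 and -3.16 ± 0.59 (SD, n = 4), while A_52_P108346 was far above it. Which of the 3 probes reads the transgene is not given in the sources used here.

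**Figure D1:**
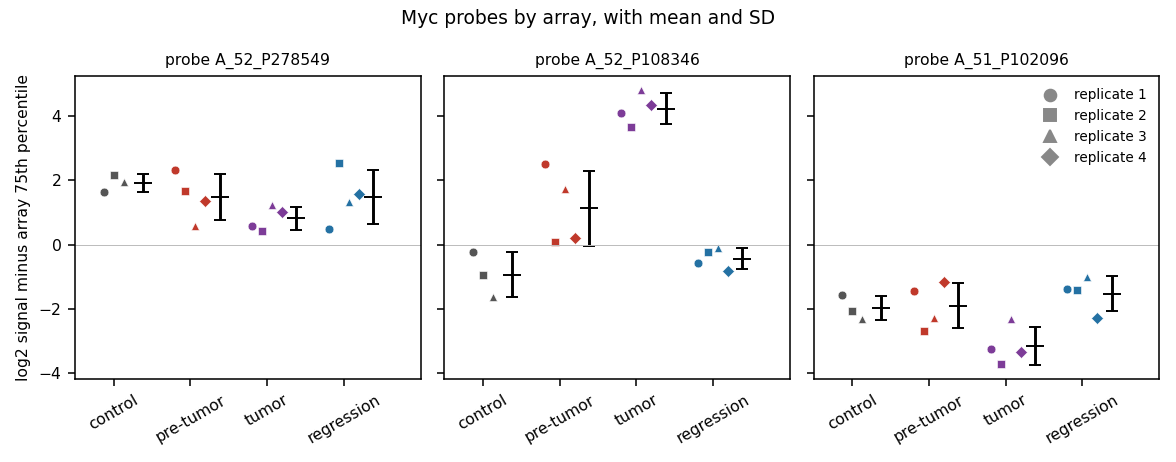
Level of the 3 Myc probes on each of the 15 arrays (y axis, log2 signal minus the array's 75th percentile), by group, with black marks for the group mean and SD and marker shape for the replicate number. Probe A_52_P108346 separates pre-tumor from control arrays and reaches a mean of 4.22 in tumors, and the other probes do not separate them.

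The partners and antagonists of MYC did not separate the groups. Of 13 measured genes of the MYC and MAX network 4 lay above 0, the median difference was -0.21, and 0 were without overlap in either direction. Myc itself is 1 of the 13. It counts here through probe A_52_P278549 and not through A_52_P108346, which was higher without overlap. The 95% interval left out a 2-fold rise for 10 of the 13 and a 2-fold fall for 6. Max, the obligate partner, differed by 0.11 ± 0.42 log2 units and Mycn, the neural paralogue of MYC, by -0.34 ± 0.53. Mxd1, which competes with MYC for MAX, had the smallest unadjusted p of the list: it was at 1.84, 1.31 and 0.41 in controls and 2.74, 1.02, 3.12 and 2.20 in pre-tumor liver. Pre-tumor 2 lay among the controls, and the difference was 1.08 ± 0.63. Mnt, another antagonist, differed by -0.66 ± 0.38.

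Genes that MYC is known to activate did not lie together above control. Of 29 measured activation targets 16 were above 0, their median difference was 0.05, and 0 were higher without overlap while 1 was lower. For 19 of the 29 the 95% interval left out a 2-fold rise. Npm1, a nucleolar chaperone, differed by 0.26 ± 0.38 log2 units, Odc1, the first enzyme of polyamine synthesis, by 0.20 ± 0.34, and Ccnd2, a cyclin of the G1 phase, by 0.16 ± 0.35. Ncl, which encodes the nucleolar protein nucleolin, was at 2.51, 2.03 and 0.80 in controls and 2.30, 2.51, 3.20 and 2.05 in pre-tumor liver, a difference of 0.73 ± 0.48. Only pre-tumor 3 stood clearly above the controls for Ncl. Srm, the spermidine synthase, was the target without overlap, and it was on the lower side, at 2.47, 2.06 and 1.80 in controls against 1.15, 0.82, 1.73 and 1.24. That is a difference of -0.87 ± 0.35, with an adjusted p of 1.00 in limma.

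Pre-tumor 3 had the highest value of the 7 arrays for 21 of the 29 targets and pre-tumor 4 the lowest for 15. The median of the list against the control mean was 0.15, 0.19, 0.60 and -0.43 in pre-tumor 1 to 4. In tumors, by contrast, 21 of the 29 were higher than in pre-tumor liver at an adjusted p under 0.05 in limma, where 10.1% of all genes were, and 1 was lower. The median of that difference was 1.64 log2 units. Srm was 3.57 log2 units higher in tumors than in pre-tumor liver, and Npm1 2.73.

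The MYC motif can be shown in the promoter of Cdk4, a cyclin-dependent kinase of the G1 phase. The windows below are from RefSeq on GRCm38.p6, + strand, printed 5′ to 3′, with the E-box CACGTG in capitals. They start at chr10:127063343, chr10:127063397 and chr10:127063417, and the E-boxes end 166, 112 and 92 bases before the start site.
Cdk4 window 1: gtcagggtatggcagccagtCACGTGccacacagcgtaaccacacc
Cdk4 window 2: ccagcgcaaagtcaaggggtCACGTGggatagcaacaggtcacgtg
Cdk4 window 3: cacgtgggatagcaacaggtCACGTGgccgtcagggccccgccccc
The same palindrome occurs from 250 bases before to 50 bases after the start in 8 of 23 targets with a promoter sequence (34.8%), against 7.15% of 32851 promoters and 1453 of 14465 tested genes with a promoter (10%). Cdk4 read 2.19, 1.48 and 1.31 in controls and 1.16, 1.95, 2.14 and 1.10 in pre-tumor liver. The groups overlapped fully and the difference was -0.07 ± 0.38 log2 units, with a 95% interval of -0.89 to 0.74. Against pre-tumor liver the tumors were 3.06 log2 units higher, with an adjusted p of 1.3e-05 in limma.

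Ribosome biogenesis and cell division genes likewise centred on the control level. Of 35 ribosome biogenesis genes 20 were above 0 with a median of 0.02. Rrs1, a ribosome assembly factor, differed by 1.25 ± 0.55 log2 units with overlap, and Ubtf, the RNA polymerase I factor, by -0.56 ± 0.29 and was lower without overlap. Of 26 cell division genes 14 were above 0 with a median of 0.04 and 0 without overlap. E2f8, an atypical E2F repressor, differed by -1.16 ± 0.49 log2 units, with overlap. Mki67, the proliferation marker, was well above background on 1 of 3 control arrays and 3 of 4 pre-tumor arrays and differed by 0.75 ± 0.56. The mitotic genes Cdk1 and Aurkb were not well above background on any of the 7 arrays. Ccnd1, cyclin D1, differed by -0.16 ± 0.58. Of 28 DNA replication genes 16 were above 0 with a median of 0.15. The smallest unadjusted p values of that list were those of Pola1, a DNA polymerase subunit that no control array measured above background, and Prim1. Prim1, a primase subunit well above background on 1 of 3 control arrays, was at -2.97, -2.79 and -4.33 in controls and -2.52, -2.48, -2.69 and -2.62 in pre-tumor liver.

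Nucleotide and one-carbon synthesis, a part of growth metabolism, had 18 of 28 members above 0 and a median of 0.36 against -0.04 over all genes. The list median against the control mean was 0.13, 0.38, 0.97 and 0.05 in pre-tumor 1 to 4, highest in pre-tumor 3. Mthfd1l, Prps2 and Tyms were higher without overlap, which is 3 of 28 members beside 1.92% of all genes. Mthfd1l and Prps2 passed the background filter without any control array, so this count is only a description. Mthfd1l, of mitochondrial folate metabolism, was not well above background on any control array and was on 3 of 4 pre-tumor arrays. Prps2, which makes the ribose precursor of nucleotides, was above background on none of 3 control and all 4 pre-tumor arrays, at least 1.19-fold higher. Gls2, the liver-type enzyme of glutamine breakdown, differed by 0.13 ± 0.48. Gclc, the first enzyme of glutathione synthesis, differed by 0.78 ± 0.45.

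Glycolysis genes had a median of 0.22 with 10 of 18 above 0 and none without overlap. Ldha, lactate dehydrogenase A, differed by -0.28 ± 0.38 log2 units, Pkm, the pyruvate kinase of growing tissues, by 0.25 ± 0.44 (pre-tumor 4 was left out, its spots being flagged), and Pklr, that of mature liver, by 0.53 ± 0.49. Hk2, the hexokinase of tumors, was not well above background on any control array and was on 3 of 4 pre-tumor arrays. In the polyamine list (8 genes, median -0.02), Azin1, an inhibitor of antizyme, was at 0.12, -1.22 and -2.11 in controls and 0.31, 0.09, 1.45 and 0.47 in pre-tumor liver. It overlapped in pre-tumor 2 alone and differed by 1.65 ± 0.54. Paox, a polyamine oxidase, differed by 1.38 ± 0.45.

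The genes with the highest differences among those without overlap were chosen by a rule that used these same values, so their folds are given as a description. Egr1, an immediate early zinc finger factor, was at -1.23, -1.41 and -1.84 in controls and 1.22, 0.81, 0.73 and 3.21 in pre-tumor liver. Every pre-tumor array was far above every control array, with pre-tumor 4 the highest, and the difference was 2.99 ± 0.66 (7.93-fold, adjusted p 0.569 in limma). Echdc3, a mitochondrial enoyl-CoA hydratase family member, was at -1.40, -1.21 and -0.83 in controls and 0.99, 1.58, 1.72 and 1.30 in pre-tumor liver, the tightest group of this set. It differed by 2.54 ± 0.40 (5.83-fold, adjusted p 0.115), and normexp background correction with quantile normalization, the authors' deposited table and a trended robust variance each gave it an adjusted p under 0.05.

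Adh4, an alcohol dehydrogenase that also oxidises retinol, was at 2.03, 1.68 and 0.93 in controls and 3.06, 4.59, 4.49 and 4.07 in pre-tumor liver. The difference was 2.51 ± 0.50 (5.68-fold, adjusted p 0.471). Rdh16f2, a retinol dehydrogenase family member, was at 1.69, 1.94 and 1.00 against 2.95, 2.44, 4.37 and 3.47, a difference of 1.77 ± 0.52. Zfp36, which encodes the mRNA-destabilising protein tristetraprolin, was at 2.36, 1.48 and 2.36 in controls and 4.16, 3.03, 4.22 and 4.66 in pre-tumor liver. It differed by 1.95 ± 0.51 (3.87-fold), and its second probe by 1.35 ± 0.84.

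Others on the higher side were Cnksr3 (2.19 ± 0.76 log2 units), Trim30d (1.95 ± 0.77), Adgrv1 (1.90 ± 0.48) and Slc25a21 (1.85 ± 0.58). Slc25a21 carries oxodicarboxylates across the mitochondrial membrane. Of 5 passing Adgrv1 probes 2 had this sign, and the other 3 were dim and near 0. Trim30d and Rdh16f2 belong to families of near-identical copies, whose probes may read more than 1 member. In 18 genes all pre-tumor arrays and no control array were well above background, so that the fold is a lower bound: the mean of the pre-tumor arrays against, on each control array, the higher of its own signal and the dimmest signal that counted as above background. Of the 3 highest bounds, Camk1d, a calcium-calmodulin kinase, was at least 3.69-fold higher, Chac2, of glutathione breakdown, at least 2.18-fold, and Steap3, a metalloreductase, at least 1.97-fold, with 1 of its 2 probes in that direction. Of the 19234 genes tested, 0 gave such a bound in the other direction. That would need a probe not well above background on any pre-tumor array. On pre-tumor 4, 90.8% of spots were well above background, against 73.0%, 69.9% and 54.4% on controls 1 to 3. The part of this in the 2 counts was not tested.

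Among genes without overlap on the lower side, Cobl and Sergef came first. Cobl, which encodes the actin nucleator cordon-bleu, was at 1.00, -0.10 and 0.56 in controls and -2.15, -1.79, -1.25 and -2.46 in pre-tumor liver. The difference was -2.40 ± 0.43 (5.27-fold lower, adjusted p 0.316 in limma). Sergef, a protein with guanine exchange factor repeats, was at 0.41, 0.50 and 0.81 against -1.43, -1.18, -2.38 and -2.26, a difference of -2.39 ± 0.37 (5.24-fold lower, adjusted p 0.115). For Sergef the gap between the groups was wider than the range within either group.

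Lyzl4, a lysozyme family gene, was at 2.26, 2.09 and 1.35 in controls and 0.20, 0.58, -1.33 and -0.41 in pre-tumor liver (-2.14 ± 0.49). Cdk2ap2, a CDK2-associated protein, differed by -1.80 ± 0.47, and Arfgap3, a Golgi trafficking factor, by -1.63 ± 0.41, with 3 of 3 probes below 0. Olfr876 (-2.15 ± 0.71) is an olfactory receptor of a large gene family and was above background on 2 of 4 pre-tumor arrays. It was at -2.84, -2.68 and -0.17 in controls and -3.68, -3.24, -4.99 and -4.29 in pre-tumor liver, with control 3 far above the other controls. Iglv1 (-1.77 ± 0.57) is an immunoglobulin light chain segment. Its 7 probes were all below 0, by 0.13 to 1.77 log2 units, and B and plasma cell markers had a summed level of 5.27 to 8.10 in controls and 3.56 to 7.80 in pre-tumor liver; their part in the result was not tested. Fam162b differed by -1.63 ± 0.54. Etfbkmt, chosen after its values were seen because 2 settings called it, was at 3.41, 2.80 and 2.82 in controls and 1.68, 1.67, 1.78 and 1.20 in pre-tumor liver, a difference of -1.43 ± 0.33. It encodes a lysine methyltransferase of a mitochondrial flavoprotein, and all 3 of its probes were below 0.

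**Figure D2:**
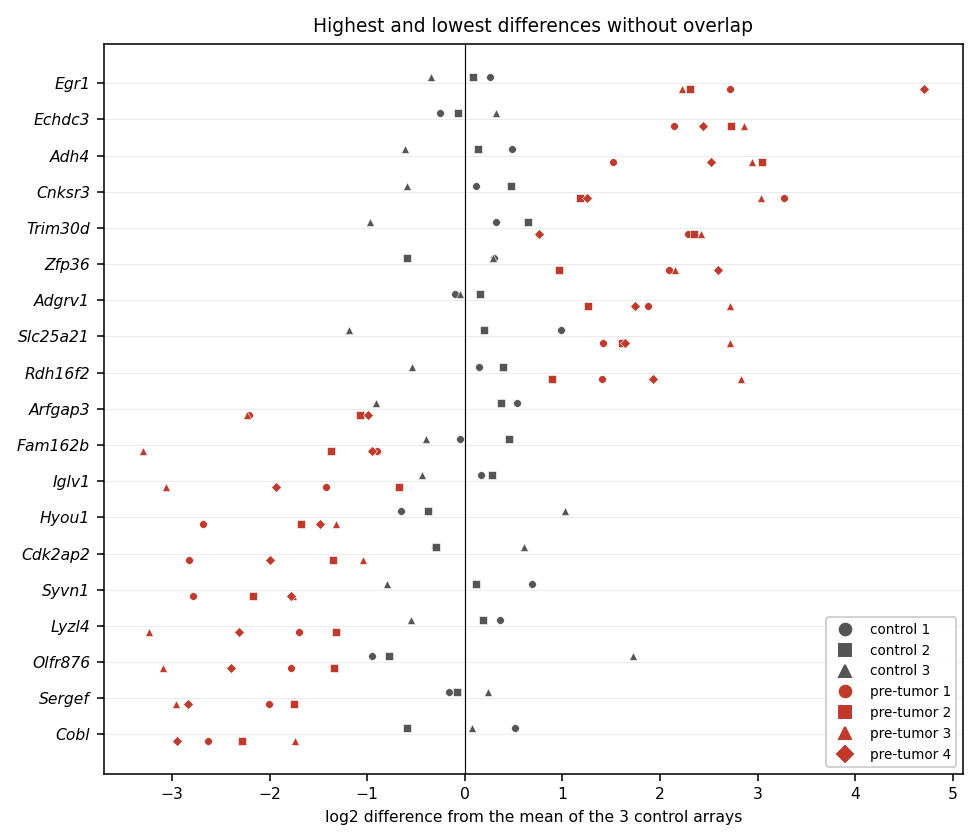
Values of the genes described among those with the highest and lowest differences without overlap, on the 7 arrays, as log2 difference from the mean of the 3 control arrays (x axis); gray points are controls and red points pre-tumor arrays. The genes were chosen for this separation, and the spread of the red points shows where 1 array, such as pre-tumor 4 for Egr1 or Trim30d, stands off.

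Syvn1 and Hyou1, on the same lower side, belong to the endoplasmic reticulum. Syvn1 encodes HRD1, the ubiquitin ligase that removes misfolded proteins from that compartment. It was at 4.57, 3.99 and 3.08 in controls and 1.10, 1.71, 2.12 and 2.10 in pre-tumor liver, a difference of -2.12 ± 0.44 (4.35-fold lower, adjusted p 0.473 in limma). Its second probe lies at chr19:6053568-6053627 on mm9, away from the first at chr19:6047993-6048052. It read 3.33, 4.32 and 2.54 in controls against 1.76, 2.17, 1.82 and 2.30, also without overlap. Syvn1 was 1 of 4 genes, among 7505 with at least 2 passing probes, for which every probe was lower without overlap. Its tumor mean was 2.31 ± 0.69 (SD, n = 4) and its mean after doxycycline 2.05 ± 0.30 (SD, n = 4), below all 3 controls.

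Hyou1, an endoplasmic reticulum chaperone, was at 3.70, 3.97 and 5.37 in controls and 1.66, 2.66, 3.03 and 2.86 in pre-tumor liver (-1.79 ± 0.48, 3.47-fold lower). A further pair of members of the list of unfolded protein and amino acid stress genes were lower without overlap. Manf, a secreted stress protein, was at 3.60, 3.79 and 3.33 against 1.51, 1.43, 2.71 and 2.23 (-1.60 ± 0.36, adjusted p 0.58). Dnajb9, a co-chaperone, was at 3.14, 3.49 and 2.31 against 1.33, 1.08, 1.87 and 1.41 (-1.55 ± 0.34, adjusted p 0.569), with 3 of 3 probes below 0. Of the 25 members measured, 8 lay above 0 and the median was -0.33 against -0.04 over all genes. An unadjusted p under 0.05 was found for 7 on the lower side and 1 on the higher, where 2.62% of all genes had one in either direction. The 3 lower without overlap stand beside 0.902% of all genes. The list was chosen with earlier results of these data known, so its counts are only a description.

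Other members were chosen after their values were seen and are given as a description. Creld2 was at 5.28, 6.14 and 3.46 in controls and 2.49, 2.75, 3.01 and 3.54 in pre-tumor liver, so that control 3 lay within the pre-tumor range (-2.01 ± 0.63). Herpud1, of protein degradation from the compartment, was at 5.71, 5.72 and 4.09 against 3.39, 4.20, 4.44 and 3.96 (-1.17 ± 0.41). Hsp90b1 and Hspa5, its most abundant chaperones, differed by -0.85 ± 0.35 and -0.84 ± 0.50. Control 3 was the lowest control for these 4 genes. Calr, Pdia6 and Dnajc3, of the same folding machinery, differed by 0.0041 ± 0.36, 0.31 ± 0.42 and -0.10 ± 0.41. The sensor-linked factors Xbp1, Atf4 and Ddit3 differed by 0.61 ± 0.50, -0.70 ± 0.37 and -0.67 ± 0.32.

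The list rests on few arrays. Its median against the control mean was 0.25, 0.21 and -0.46 in controls 1 to 3 and -0.68, -0.46, -0.14 and -0.40 in pre-tumor 1 to 4. Without control 1 the median difference was -0.11, without control 3 it was -0.64, and without control 1, pre-tumor 1 and pre-tumor 4, the arrays of highest E1A signal, it was -0.01. The part of that signal in the result was not tested. Within slides it was -0.79, -0.43 and 0.03, the last for control 3 with pre-tumor 4. Syvn1, Hyou1, Manf and Dnajb9 stayed lower in that smaller set, by 1.62, 1.83, 1.49 and 1.42 log2 units.

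The promoters of several of these genes carry the endoplasmic reticulum stress response element, which ATF6 and XBP1 bind with the factor NF-Y. The element searched was CCAAT, then any 9 bases, then CCACG, on both strands of the 250 bases before and 50 bases after each start site (RefSeq, GRCm38.p6). It occurs in 39 of 32851 promoters (0.119%), in 21 of 14465 tested genes with a promoter (0.145%) and in 6 of 22 list members with one (27.3%). It also occurs in Syvn1, which is no list member and was added after its values were seen. The windows are shown because these genes share the element and differ in their values. Each is printed 5′ to 3′ on the strand of its gene, with the element in capitals; where it lies on the opposite strand, the capitals begin with CGTGG and end with ATTGG.
Syvn1 (chr19:6046512-6046570, + strand): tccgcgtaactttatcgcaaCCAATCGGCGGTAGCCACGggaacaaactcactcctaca
Creld2 (chr15:88819500-88819558, + strand): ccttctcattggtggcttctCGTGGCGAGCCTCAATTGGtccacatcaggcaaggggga
Hspa5 (chr2:34772005-34772063, + strand): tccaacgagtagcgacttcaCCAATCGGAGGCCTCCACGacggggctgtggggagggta
Hsp90b1, first site (chr10:86705618-86705676, - strand): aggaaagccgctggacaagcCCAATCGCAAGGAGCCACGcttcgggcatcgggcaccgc
Hsp90b1, second site (chr10:86705513-86705571, - strand): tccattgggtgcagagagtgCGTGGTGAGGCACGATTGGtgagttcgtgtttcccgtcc
Dnajc3 (chr14:118937807-118937865, + strand): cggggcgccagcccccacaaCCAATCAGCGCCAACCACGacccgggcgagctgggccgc
Calr (chr8:84847055-84847113, - strand): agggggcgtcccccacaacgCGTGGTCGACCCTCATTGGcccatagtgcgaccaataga
Pdia6 (chr12:17266471-17266529, + strand): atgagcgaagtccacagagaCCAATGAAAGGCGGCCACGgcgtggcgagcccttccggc
Among the genes shown, the difference ranged from -2.12 (Syvn1) and -2.01 (Creld2) to 0.31 (Pdia6). Hyou1, Manf and Dnajb9, which were lower without overlap, do not hold these letters in the window.

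**Figure D3:**
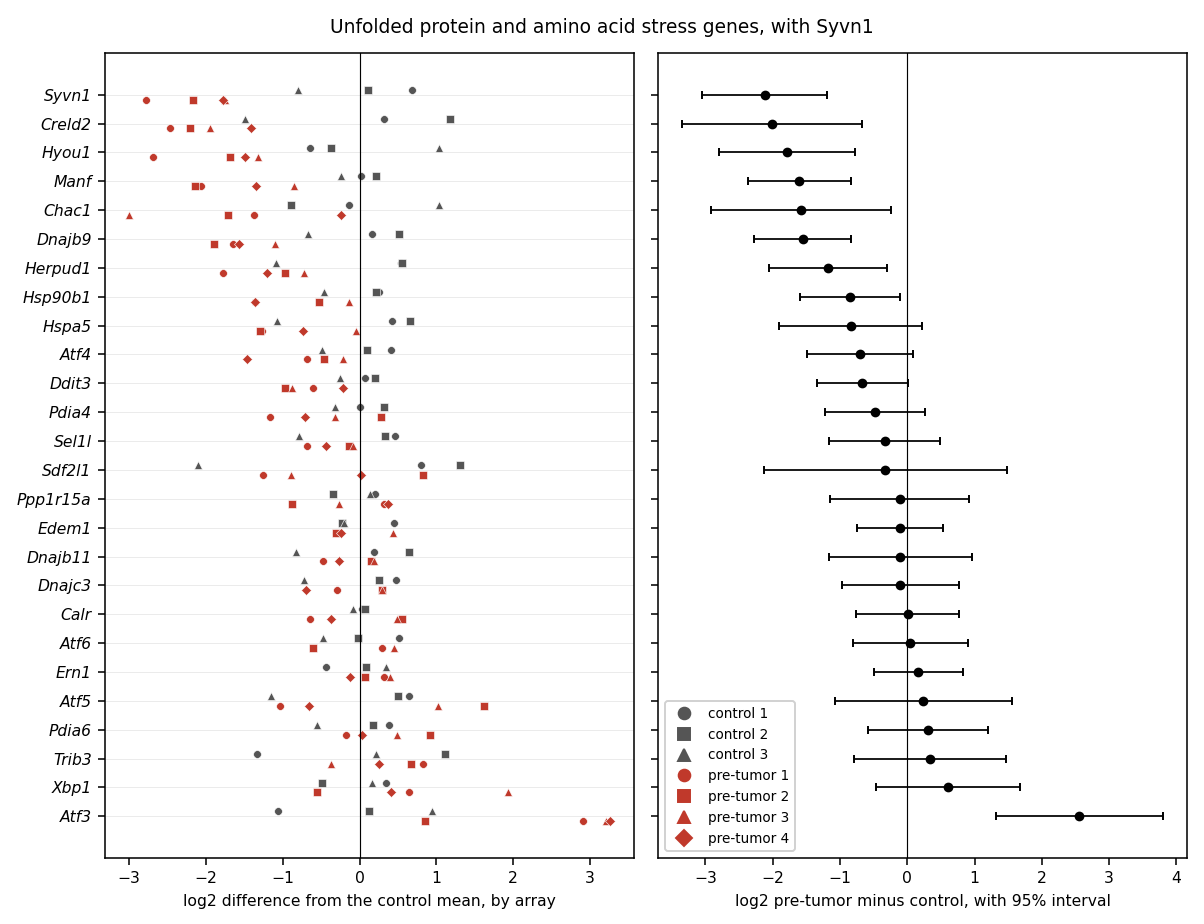
Left, the 25 measured unfolded protein and amino acid stress genes and Syvn1 on the 7 arrays, as log2 difference from the control mean; right, the fitted difference with its 95% interval. Red points lie left of all gray ones for Syvn1, Hyou1, Manf and Dnajb9. The gray triangle of control 3 lies among the red points for genes such as Creld2, Herpud1 and Hspa5, and Atf3 alone stands far to the right.

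Atf3 was the member with an unadjusted p under 0.05 on the higher side. This stress and immediate early factor was at -2.54, -1.37 and -0.54 in controls and 1.43, -0.63, 1.72 and 1.78 in pre-tumor liver. It differed by 2.56 ± 0.59 (5.89-fold, adjusted p 0.581 in limma), and pre-tumor 2 alone remained among the controls. Of 19 immediate early and heat shock genes 3 were higher without overlap (1.92% of all genes were), Egr1, Zfp36 and Ier2, while 9 lay above 0 and the median was -0.01. Ier2 differed by 0.91 ± 0.38. Fos was not well above background on any control array and was on 2 of 4 pre-tumor arrays. The heat shock chaperone Hspb1 differed by -1.19 ± 0.69.

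Tnfaip3, chosen after its values were seen, encodes A20, the feedback inhibitor of NF-kB signalling. It was at -0.36, 0.33 and 2.37 in controls and 5.64, 1.45, 5.27 and 4.66 in pre-tumor liver, a difference of 3.48 ± 0.81 (11.1-fold, adjusted p 0.614). Pre-tumor 2 lay below control 3. Without pre-tumor 2, Tnfaip3 had an adjusted p of 0.0305 in limma. Sergef and Adm, the vasodilator adrenomedullin, were called in that setting as well. Adm was also chosen after its values were seen, and no control array measured it above background.

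Of 28 interferon response genes 24 lay above 0, with a median of 0.24. Only 1 of the 28 was higher without overlap, beside 1.92% of all genes. That gene was Irf1, an interferon-induced transcription factor, at 1.59, 1.43 and 2.93 in controls and 3.11, 3.33, 4.23 and 4.28 in pre-tumor liver (1.75 ± 0.45, 3.37-fold, adjusted p 0.772). Both of its probes separated the groups, as did both of Trim30d and Adamts1 and all 3 of Tle1, among 21 genes with every probe higher without overlap. Adamts1, a secreted metalloprotease, differed by 1.56 ± 0.32 and Tle1, a Groucho corepressor, by 1.43 ± 0.38; both were chosen after their values were seen. The chemokine Cxcl10 was at -2.19, -0.86 and 2.69 against 4.41, 2.14, 5.58 and 3.91, overlapping through control 3 and pre-tumor 2. Its difference was 4.13 ± 0.93. Cxcl9 differed by 2.46 ± 0.74. Against the control mean the list median was 0.40, -0.36 and -0.13 in controls 1 to 3. It was 0.41, 0.72, 0.53 and -0.73 in pre-tumor 1 to 4. Within slides the list median was 0.91 (pre-tumor 2 minus control 1), 0.94 (pre-tumor 3 minus control 2) and -0.53 (pre-tumor 4 minus control 3). In tumors 22 of the 28 were lower than in pre-tumor liver, where 9.08% of all genes were, and none was higher.

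Genes of arrest and death lay on both sides of 0. Of 19 p53 and cell cycle arrest genes 10 lay above 0 (median 0.17), and of 22 cell death regulators 15 (median 0.16). Cdkn1a, the p21 inhibitor, was at 1.65, 1.51 and 1.62 in controls and 1.66, -0.55, -0.24 and -0.49 in pre-tumor liver. Pre-tumor 1 was at the control level and the other 3 were far below it, which gave -1.50 ± 0.56. Perp, a p53 effector at cell junctions, was at 2.58, 2.54 and 1.00 against 2.96, 3.60, 4.24 and 3.11 (1.44 ± 0.47), without overlap. Trp53 itself differed by -0.30 ± 0.46. Bcl2l1, which encodes the survival protein BCL-XL, was at 3.50, 2.65 and 2.79 in controls and 4.93, 3.55, 5.33 and 4.19 in pre-tumor liver. Pre-tumor 2 was hardly above control 1, and the difference was 1.52 ± 0.49 (2.86-fold, adjusted p 1.00). Birc2, an inhibitor of apoptosis, differed by 1.65 ± 0.50, with pre-tumor 2 among the controls.

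Several hepatocyte gene lists were highest in 1 pre-tumor array. Pre-tumor 3 had the highest value of the 7 arrays for 19 of 20 secreted protein genes, 21 of 26 detoxification genes, 13 of 17 bile acid genes, 22 of 24 urea cycle and amino acid genes and 13 of 14 glucose handling genes. The list medians in that array were 0.92, 1.11, 1.22, 1.18 and 1.12 above the control mean. In the other pre-tumor arrays they lay between -0.46 and 0.20. In pre-tumor 3, T and NK cell markers stood at a median of -1.01 and B and plasma cell markers at -0.86. Other markers did not share this: endothelium stood at 1.03 and stellate cells and fibroblasts at 0.81. Macrophage, neutrophil, bile duct and erythroid markers stood at -0.20, -0.46, -0.29 and -0.05. In bulk tissue, fewer cells of a type and less RNA per cell cannot be told apart.

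Single hepatocyte genes did separate the groups. Higher without overlap were 2 of 24 urea cycle and amino acid, 2 of 26 detoxification and 1 of 23 secreted protein genes. The share over all genes was 1.92%. Pre-tumor 3 had the highest value for Kynu, Hal, Ttr and Cyp2j5. Kynu, kynureninase of tryptophan breakdown, was at -1.07, -0.92 and -0.95 in controls and 0.32, -0.13, 1.41 and 0.35 in pre-tumor liver (1.47 ± 0.37, 2.76-fold, adjusted p 0.705 in limma). Hal, histidine ammonia-lyase, was at 2.14, 1.21 and 1.89 against 2.35, 3.04, 4.25 and 3.21 (1.46 ± 0.42). Nqo1, a quinone reductase, was at -2.70, -2.18 and -3.52 against -1.95, -0.68, -1.46 and -1.96 (1.29 ± 0.43). Ttr, the thyroid hormone carrier transthyretin, differed by 0.72 ± 0.43, and Cyp2j5, an epoxygenase, by 0.72 ± 0.56, both without overlap. The urea cycle list had 14 of 24 members above 0 and the detoxification list 17 of 26, with medians of 0.12 and 0.18.

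Cyp7a1, the rate-limiting enzyme of bile acid synthesis, was at 3.06, 1.55 and -1.14 in controls and -2.24, -0.89, -1.29 and -1.28 in pre-tumor liver. The controls spread widely, control 3 lay inside the pre-tumor range, and the difference was -2.58 ± 0.74 (5.98-fold lower, adjusted p 1.00). Hsd3b7, a later enzyme of that pathway, differed by 1.20 ± 0.45. Of 17 bile acid genes 11 lay above 0 with a median of 0.28. Among 18 liver transcription factors 5 lay above 0 with a median of -0.17. Hnf4a, a master regulator of hepatocyte identity, was at 3.93, 3.16 and 3.98 against 2.72, 2.69, 3.68 and 2.20 (-0.87 ± 0.40), with pre-tumor 3 among the controls, and Foxa2 differed by -0.98 ± 0.49. Of 20 acute phase genes 3 lay above 0, with a median of -0.32; pre-tumor 4 had the lowest list median, at -1.14. Saa1, serum amyloid A, differed by -0.17 ± 0.54, Hamp, which encodes hepcidin, by -0.97 ± 0.71, and Crp by 1.24 ± 1.02. The abundant urinary protein gene Mup1, of a large family, differed by -0.50 ± 1.09.

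**Figure D4:**
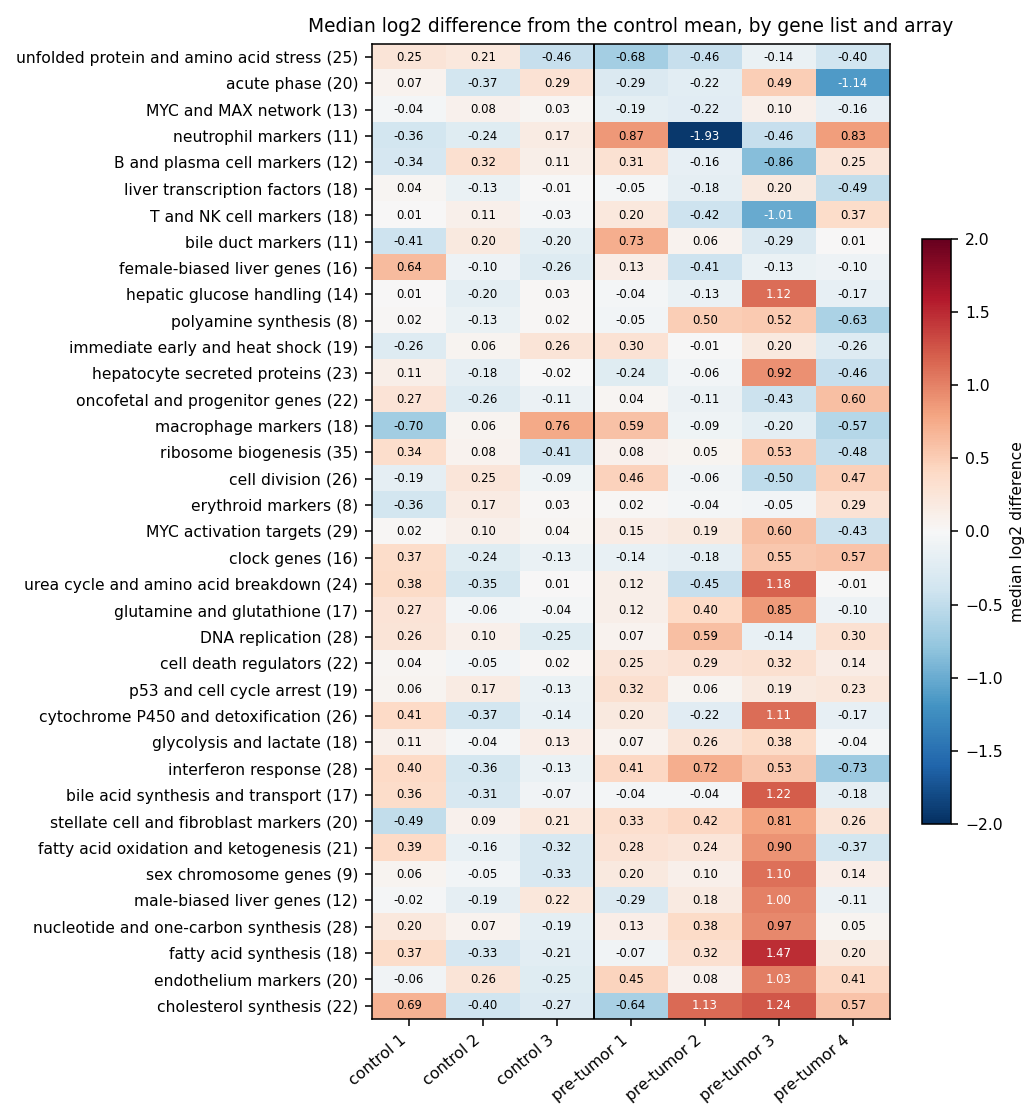
Median log2 difference from the control mean of each gene list (rows, number of measured genes in parentheses) on each of the 7 arrays (columns); red is higher and blue lower, and the vertical line divides control from pre-tumor arrays. The column of pre-tumor 3 is red for hepatocyte lists of metabolism, up to 1.47 for fatty acid synthesis, and that of pre-tumor 4 is blue for acute phase genes, at -1.14.

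Of the gene lists, cholesterol synthesis had the most members that were higher in all 3 shared slides. Of 22 cholesterol synthesis genes 18 lay above 0, the median was 0.47, and 14 were higher in pre-tumor liver in all 3 shared slides, beside 9.08% of all genes. Yet 0 of the 22 separated the groups. Pre-tumor 1, whose slide held no control, had a list median of -0.64 against the control mean, and control 1 had 0.69. Within slides the list median was 0.50 (pre-tumor 2 minus control 1), 1.79 (pre-tumor 3 minus control 2) and 0.65 (pre-tumor 4 minus control 3). Pre-tumor 1 had the lowest of the 7 values for 11 of the 22 genes.

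Msmo1, a sterol C4 demethylase, was at 3.31, 2.46 and 2.03 in controls and 1.70, 4.90, 5.11 and 3.99 in pre-tumor liver (1.32 ± 0.70). Hmgcs1, the synthase at the head of the pathway and chosen after its values were seen, was at 3.96, 2.08 and 1.81 against 1.46, 5.04, 5.32 and 4.16 (1.38 ± 0.88). In both genes pre-tumor 1 was the lowest array and the other 3 pre-tumor arrays were the highest. Sc5d and Fdft1, of later and middle steps, differed by 1.29 ± 0.64 and 1.11 ± 0.55. The list median was 0.90 without pre-tumor 1, 0.85 without control 1, 0.20 without pre-tumor 3, 0.27 without pre-tumor 2 and 1.60 without control 1, pre-tumor 1 and pre-tumor 4, the arrays of highest E1A signal.

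Fatty acid synthesis had 14 of 18 members above 0 and a median of 0.41. Of these members 3 were higher without overlap (1.92% of all genes were) and 6 were higher in all 3 slides (9.08% of all genes). Within slides the list median was -0.49 (pre-tumor 2 minus control 1), 1.64 (pre-tumor 3 minus control 2) and 0.60 (pre-tumor 4 minus control 3), so 1 slide went the other way. Insig2, a brake on sterol regulatory element-binding proteins, was at 2.29, 1.62 and 2.04 in controls and 3.22, 2.89, 3.25 and 3.38 in pre-tumor liver (1.20 ± 0.31, 2.30-fold, adjusted p 0.705 in limma). Acly, which makes cytosolic acetyl-CoA, was at 1.69, 2.04 and 2.07 against 2.10, 2.67, 4.00 and 3.02 (1.01 ± 0.40), and Elovl5, a fatty acid elongase, differed by 0.96 ± 0.39. For Acly, pre-tumor 1 was hardly above control 3, and 2 of the 3 Insig2 probes were above 0. Fatty acid oxidation had 16 of 21 above 0, a median of 0.30 and none without overlap; Acadm differed by 0.79 ± 0.40 and Bdh1 by 0.84 ± 0.52.

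**Figure D5:**
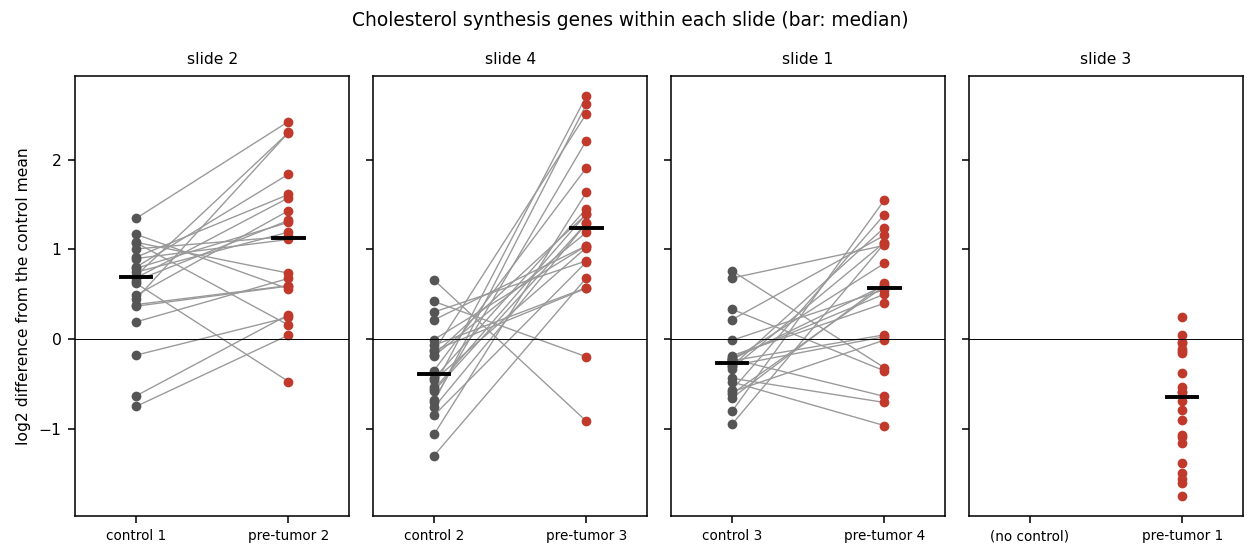
The 22 cholesterol synthesis genes as log2 difference from the control mean (y axis), with 1 panel for each slide; lines join a gene in the control and the pre-tumor array of the same slide, and bars are medians. In the 3 slides with both groups most lines slope upward, with median differences of 0.50, 1.79 and 0.65, and pre-tumor 1 lies mostly below 0.

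Of the oncofetal genes that mark liver tumors, H19 and Igf2 lay far below their tumor level. Afp, alpha-fetoprotein, was well above background on no control array and on 2 of 4 pre-tumor arrays, at -4.85, -4.85 and -3.93 in controls and -4.76, -2.06, -2.49 and -4.92 in pre-tumor liver. H19, an imprinted RNA of fetal liver, was at -1.76, -0.87 and -1.66 against -1.18, 0.11, 1.62 and -1.36 (1.23 ± 0.61). Igf2, its neighbouring growth factor gene, was at -3.46, -2.87 and -2.07 against -2.96, -2.43, -1.56 and -1.68 (0.64 ± 0.56), above background on 1 of 3 control and 4 of 4 pre-tumor arrays. Of the 22 genes of the list 12 lay above 0, with a median of 0.02. Tumors were 9.54 and 8.89 log2 units above pre-tumor liver for H19 and Igf2, with adjusted p of 6.3e-08 and 3.2e-08 in limma. For Afp no such difference is given, since only 2 of 4 pre-tumor arrays measured it.

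Among markers of other liver cells, the endothelium, the stellate cell and fibroblast, and the T and NK cell lists held members without overlap. Of 20 endothelium markers 16 lay above 0 with a median of 0.46, 3 were higher without overlap (1.92% of all genes were) and 7 were higher in all 3 slides (9.08% of all genes). Tek, the angiopoietin receptor, was at -2.04, -2.19 and -3.53 in controls and -1.52, -1.0, -0.57 and -1.26 in pre-tumor liver (1.50 ± 0.37, 2.83-fold, adjusted p 0.705 in limma). Dnase1l3, a nuclease of sinusoidal endothelium, was at 1.90, 2.49 and 2.40 against 3.09, 4.03, 3.90 and 2.61 (1.14 ± 0.50). Flt1, a VEGF receptor, differed by 0.78 ± 0.30, but 2 of its 4 probes were below 0, by 0.61 and 0.68. The summed level of the list was 20.3 to 28.1 times the 75th percentile in controls and 25.0 to 51.4 in pre-tumor liver.

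Of 20 stellate cell and fibroblast markers 14 lay above 0 with a median of 0.30, and 3 were higher without overlap, beside 1.92% of all genes. Cygb, the stellate cell cytoglobin, was at -0.48, 0.50 and -1.11 in controls and 0.75, 1.80, 1.66 and 0.75 in pre-tumor liver (1.60 ± 0.43, 3.03-fold, adjusted p 0.837). Lum, a matrix proteoglycan, was at -4.77, -3.15 and -2.80 against -1.44, -1.60, -1.65 and -1.93 (1.92 ± 0.61), above background on 1 of 3 control arrays. Col3a1, a fibrillar collagen, differed by 1.06 ± 0.46, and 2 of its 3 probes had this sign. Macrophage markers (18, median 0.02), neutrophil markers (11, median -0.18), bile duct markers (11, median -0.11) and erythroid markers (8, median 0.05) held none without overlap. Zap70, a T cell kinase, was lower without overlap (-0.65 ± 0.38), within a list of 18 T and NK cell markers of which 3 lay above 0. Neutrophil markers were the most variable, with medians of 0.87, -1.93, -0.46 and 0.83 in pre-tumor 1 to 4. The part of cell composition in the differences above was not tested.

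Ddx3y, a Y-linked gene, was well above background on all 7 arrays, at -0.24, -0.34 and -0.33 in controls and -0.10, -0.20, 0.80 and -0.27 in pre-tumor liver. Xist, the X-inactivation RNA, differed by 0.31 ± 0.92, and its values of -3.84 to -0.38 in controls and -4.02 to -0.83 in pre-tumor liver covered the same range. Male-biased liver genes had a median of 0.33 (9 of 12 above 0) and female-biased genes one of -0.10 (7 of 16 above 0), none without overlap.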

How the data were processed

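Per the labels' protocols, liver RNA was extracted with a mirVana kit, amplified with a Sigma whole transcriptome kit and labelled with Cy3, and 1 sample was hybridised to each array. The authors' deposited intensity values are Agilent Feature Extraction 10.5.1.1 output per the file headers, background-subtracted processed signals with no normalization between arrays. The authors' deposited table holds log2 values whose normalization is not given in the sources used here. It followed each array's own median spot signal in rank, except control 3 (Spearman's rho 0.9903), and was used only as an alternative.

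Here log2 processed signals were scaled to each array's 75th percentile, flagged spots (0.452% of values) were left out, and spots of a probe were averaged. Probes well above background on at least 3 of 15 arrays were kept (33957, of which 29926 have a symbol), and the brightest probe stood for its gene. Symbols were updated through RefSeq where they matched (33414 of 34908 probes), and a gene symbol on the array can be old. limma 3.58.1 in R 4.3.3 fitted 4 groups on 15 arrays with Benjamini-Hochberg adjustment over 19234 genes, and was checked on simulated data. The number of arrays limits the precision. Errors after ± are SE of the fit unless marked SD.

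"Without overlap" means that all 4 pre-tumor arrays lay on 1 side of all 3 control arrays. Members and gene lists were chosen with earlier results of these data known. Genes are named by a rule: the 10 highest and 10 lowest differences without overlap, the 3 highest bounds, the members of each described list with the smallest p, and a set of named liver, MYC and growth genes; exceptions are marked as chosen after their values were seen. Alternatives were other scalings, background corrections, probe filters and summaries, variance models, slide and replicate blocks, and leaving out arrays. Some results that the rule would name are not reported here.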

Additional observations from a re-analysis of the deposited data

Results flagged for a closer look

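In 11 of 151 values tested, the 4 pre-tumor arrays held 1 that stood apart from the other 3 by Dixon's criterion (critical value 0.829); chance flags about 1 in 20 groups, and the genes of a list share their arrays. Pre-tumor 3 stood above the others in list medians, at 1.12 for glucose handling, 1.22 for bile acid genes and 1.10 for sex chromosome genes against the control mean. The same array was high for Cyp2j5 (5.19), Pklr (4.95) and Ddx3y (0.80). Pre-tumor 2 was low for Atf3, at -0.63, and for Adm, at -5.37, while the other 3 arrays read -0.22, -0.34 and -0.19 for Adm. Pre-tumor 4 was low for Trim30d, at -0.24, and for Max, at -0.85. Pre-tumor 1 was high for Cdkn1a, at 1.66, which is the control level. No cause of these values was tested.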

How the results depend on the processing

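The count of genes with an adjusted p under 0.05 in limma was 0 in the fit reported and in most alternatives. It was 11 with normexp background correction and quantile normalization (Adh4, Cmbl, Cobl, Dnajb9, Echdc3, Etfbkmt, Lyzl4, Psd3, Pxdc1, Sergef and Sntg2), 3 in the authors' deposited table (Echdc3, Etfbkmt and Sergef), 1 with a trended robust variance (Echdc3) and 0 to 3 when 1 array was left out (3 without pre-tumor 2). Replicate numbers did not pair the samples: deviations of same-numbered arrays correlated at -0.38, 0.53 and 0.02. Slides did not pair them either. Deviations of arrays on 1 slide correlated at -0.54 (control 1 with pre-tumor 2), -0.37 (control 2 with pre-tumor 3) and -0.28 (control 3 with pre-tumor 4). With the replicate block 0 genes were called and 805 had an unadjusted p under 0.05; with slide as a block 0 were called and 362 had one. Genes higher without overlap numbered 204 with median centring, 498 to 1419 when 1 array was left out and 3967 without the 4 arrays of highest E1A signal, an alternative added after seeing the data, as was slide as a random block. Genes lower without overlap numbered 282 with normexp and quantile normalization, 291 with quantile normalization alone, 297 to 1668 with 1 array left out and 4700 without those 4 arrays. Genes of 1 sign in all shared slides numbered 1694 to 4919 on the higher and 795 to 4385 on the lower side with 1 array left out, and 9301 and 9930 without those 4. Fewer arrays separate more easily by construction, and fewer slides share a sign more easily. The highest counts without overlap with 1 array left out, 1419 and 1668, came without control 1. They were 689 and 549 without control 2, and 600 and 438 without control 3. Over genes, control 1 correlated at 0.836 and 0.846 with controls 2 and 3. With pre-tumor 1 to 4 it correlated at 0.879, 0.849, 0.917 and 0.921. Why control 1 stands apart was not tested.

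The sign of some differences turned with the setting. With the mean of the passing probes, Myc differed by 0.57, Pkm by -0.15, Calr by -0.057 and Pdia6 by -0.016. With normexp and quantile normalization, Aurkb differed by 0.0075, Mup1 by 0.066, Saa1 by 0.019 and Calr by -0.036. With quantile normalization alone, Max differed by -0.019, Mup1 by 0.24, Saa1 by 0.11 and Calr by -0.011. In the authors' deposited table Aurkb differed by 0.0875, Mup1 by 0.057, Saa1 by 0.12 and Calr by -0.017. With the replicate block Cdk4 differed by 0.079, Ccnd1 by 0.028 and Saa1 by 0.034, and with slide as a random block Alb by -0.035 and Calr by -0.044. Without the 4 arrays of highest E1A signal, Cdk4 differed by 0.65, Mki67 by -0.43, Ldha by 0.058, Mup1 by 0.089, Saa1 by 0.41, Xist by -0.32 and Dnajc3 by 0.53. With 1 array left out, the range was -0.17 to 0.48 for Max, -0.0063 to 0.38 for Odc1, -0.26 to 0.19 for Cdk4, -0.095 to 1.47 for Mki67, -0.56 to 0.092 for Ccnd1, -0.082 to 0.32 for Ccnd2, -0.80 to 0.058 for Trp53 and -0.34 to 0.26 for Alb. It was -0.11 to 0.52 for Pkm, -0.32 to 0.49 for Gls2, -0.39 to 0.27 for Saa1, -0.46 to 1.27 for Xist, -0.18 to 0.22 for Calr and -0.46 to 0.13 for Dnajc3. The cause was not tested.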

Other observations

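Probes with no gene symbol were tested apart from the named genes. Of 4031 such probes 1 had an adjusted p under 0.05 in limma, adjusted over these probes alone, and 37 had an unadjusted p under 0.05. That probe, A_51_P297993, was at 2.53, 2.24 and 2.15 in controls 1 to 3 and at -0.44, -0.09, 0.27 and -0.57 in pre-tumor 1 to 4. Every pre-tumor array lay well below every control array, with a difference of -2.52 ± 0.40 log2 units and an adjusted p of 0.0399. Of the same probes 17 were higher and 32 lower without overlap.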
